A study of Mus musculus with 6 samples.

Results

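Mouse genes named Zfp followed by a number encode zinc finger proteins, most of them of the C2H2 type, in which each finger is folded around a zinc ion and several fingers in a row read a DNA sequence. Many carry a KRAB domain, which recruits the corepressor TRIM28 and the methyltransferase SETDB1 to silence retroelements and imprinted regions. Others bind RNA, help activate transcription or act in the cytoplasm. In mammals they form one of the largest gene families, and many lie in tandem clusters of recently duplicated, similar copies. The set described here holds every peak of the table whose gene name is Zfp and a number, with Zfp36 left out, since that gene belongs to the CCCH family of ZFP36L2 itself. The rule used names and no measured value. It gave 662 peaks of 55449 in 185 genes of 10818.

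The series asked which RNA sites the protein ZFP36L2 touches in MLTC-1, a mouse Leydig tumour cell line. ZFP36L2 is a CCCH zinc finger protein known to bind AU-rich elements in the 3′ UTRs of mRNAs and to promote their decay, and it is not related in fold to the C2H2 proteins encoded by the genes described here. In eCLIP, ultraviolet light links proteins to RNA, an antibody recovers the protein, and the attached fragments are sequenced. The 6 libraries, all from MLTC-1 cells crosslinked with UV light of 254 nm at 400 mJ per square centimetre, fell into 4 groups, with 2 ZFP36L2 immunoprecipitation (IP) libraries, 1 rabbit IgG IP library, 2 inputs of the ZFP36L2 samples and 1 input of the IgG sample. Each peak has, in 1 table made by the authors, its log2 ratio between ZFP36L2 and IgG with raw and adjusted p-values. Values of single libraries, read depth and spread between replicates are therefore unknown, and no interval can be given for any fold change. Whether the libraries stem from separate cultures is not stated, and the IgG arm had 1 library. The direction of the fold change is taken from the name of the table, and positions are on build mm10. Of 13 Leydig cell markers, 9 had a peak, among them Cyp11a1, Star and Lhcgr, while Cyp17a1, Hsd3b1, Hsd3b6 and Insl3 had none. A peak was also found for 2 of 7 Sertoli, 2 of 6 germ cell and 5 of 5 macrophage markers. A peak table holds no expression level, and the part of other cell types in the results was not tested.

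Peaks of numbered zinc finger genes were rarely called higher with ZFP36L2 than with IgG. Enriched peaks are those with a log2 fold change (ZFP36L2 over IgG) no lower than 1 whose adjusted p was under 0.05, and depleted peaks those at or below -1 that met the same limit on p. In the authors' deposited table, 3 member peaks were enriched (0.453%), against 2.22% of all peaks, and all 3 lay in Zfp106. The 37 depleted member peaks (5.59%) stood close to the 5.44% of all peaks. They belonged to 25 genes (13.5% of the members, against 17.3% of all genes), while 1 gene of 185 had an enriched peak (0.541%, against 5.04% of all genes). The remaining 159 members had no called peak. Members had fewer peaks each than other genes, with a mean of 3.59 against 5.23. At an unadjusted p under 0.05, 5 member peaks lay above 0 (0.755%, against 2.94% of all peaks) and 81 lay below (12.2%, against 11.2%). With the adjusted p under 0.01, 2 member peaks in 1 gene were enriched (all peaks 1.90%, all genes 4.32%) and 23 in 16 genes depleted (all peaks 3.36%, all genes 11.3%). With a fold change of at least 2 in size on the log2 scale, 3 member peaks in 1 gene were enriched (all peaks 2.03%, all genes 4.75%) and 36 in 25 genes depleted (all peaks 5.42%, all genes 17.3%).

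**Figure D1:**
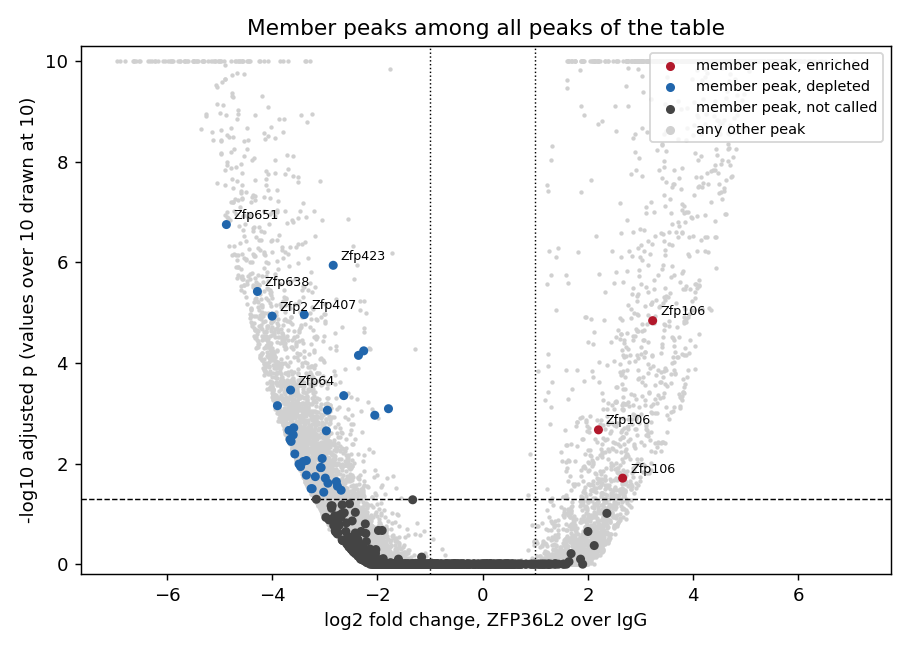
Log2 fold change of ZFP36L2 over IgG (x axis) and −log10 of the adjusted p (y axis, values over 10 drawn at 10) for member peaks, in dark or coloured points, and all other peaks, in grey. The dashed and dotted lines mark the thresholds. The 3 enriched member peaks, all of Zfp106, stand on the right, and the 37 depleted ones follow the left arm.

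The median log2 fold change of member peaks per the authors' deposited table was -1.29, against -1.05 for all other peaks. The gap was not tested and depended on how peaks were counted. With 1 peak per gene, the one with the smallest adjusted p, the median was -1.88 for members and -1.95 over all genes. Without members that lie within 100 kb of another numbered gene it was -1.14 for members and -1.05 over all peaks. Other ways of counting kept the gap. The median of the gene medians was -1.48 for members and -1.26 for other genes. With touching peaks merged, the median was -1.35 for members and -1.04 over all peaks. Of the 662 peaks, 524 (79.2%) lay below 0, compared with 76.1% of other peaks. The whole table is shifted below 0, with a median of -1.06, and 57.1% of member peaks lay below that median, against 49.6% of other peaks. Members ranged from -4.87 in Zfp651 to 3.23 in Zfp106. Counted by gene, 135 members had all of their peaks below 0, 9 had all above, and 39 had peaks on both sides. A single peak was all that 46 members had, and these counts were not made for other genes. The gene median lay below 0 in 89.7% of members, against 84.9% of other genes.

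Zfp106 (ENSMUSG00000027288.16) was the member with enriched peaks. It encodes an RNA-binding zinc finger and WD40 repeat protein that mice need to maintain motor neurons and muscle. The gene had 29 peaks, 20 of them coding, 6 intronic and 3 in the 3′ UTR, on the minus strand of chromosome 2. The strongest was a coding peak of 60 nucleotides at 120526766 to 120526825, with a value of 3.23 on the log2 scale (adjusted p = 1.4e-05) per the authors' deposited table. A second coding peak, at 120535314 to 120535366, had 2.20 (adjusted p = 0.0021 per the authors' deposited table). The third lay in the 3′ UTR, at 120509940 to 120510012, with 2.66 (adjusted p = 0.019 per the authors' deposited table). The 3 peaks do not touch one another and span 25.4 kb of the gene.

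The 26 uncalled peaks of Zfp106 had values from -1.46 to 2.12 and a median of 0.25 per the authors' deposited table, and 18 of them lay above 0. The highest of these, a coding peak of 2.12, missed the threshold with an adjusted p of 0.43 per the authors' deposited table. The other 3′ UTR peaks of the gene stood at 0.08 and -0.17 per the authors' deposited table. Over all 29 peaks the gene's median was 0.33, above the table's -1.06. High values occurred in coding sequence and in the 3′ UTR, and the 6 intronic peaks reached no more than 0.54 per the authors' deposited table.

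Zfp651 had the most negative value of the set. Its touching 3′ UTR peaks at 121768103 to 121768140 and 121768141 to 121768182 on chromosome 9 had -3.90 (adjusted p = 7.1e-04) and -4.87 (adjusted p = 1.8e-07) per the authors' deposited table. The other 3′ UTR peaks of Zfp651 had -1.73 and -0.54, and its coding peaks -1.97 and -0.52, none of them called per the authors' deposited table. Zfp451, whose human counterpart is a SUMO ligase, had 7 3′ UTR peaks, all below -2. Of these, the touching peaks from 33797102 to 33797149 on chromosome 1 were called, with -3.60 (adjusted p = 0.0027) and -3.35 (adjusted p = 0.0087) per the authors' deposited table. The coding peak of Zfp451 stood at -0.17 and its intronic peaks at -1.28 and -1.27 per the authors' deposited table. Within this gene the peaks labelled 3′ UTR thus held the lowest values. These 7 peaks lay 15.2 to 19.7 kb from the RefSeq 5′ end of a gene of 54.1 kb, far from its RefSeq 3′ end. The label is the authors', and the transcript it refers to is not stated.

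Introns held 22 of the 37 depleted peaks. Zfp638, which encodes a nuclear RNA-binding protein known to act in splicing and adipocyte differentiation, had a peak of -4.28 (adjusted p = 3.8e-06 per the authors' deposited table) at 83878258 to 83878326 on chromosome 6. Its 10 other peaks ranged from -1.38 to 1.44 per the authors' deposited table, and none was called. Zfp407, a zinc finger gene tied to glucose uptake in adipocytes, had 22 peaks over 375 kb of chromosome 18, all but 1 intronic. Its touching peaks from 84520955 to 84521018 were depleted, with -2.64 (adjusted p = 4.5e-04) and -3.39 (adjusted p = 1.1e-05) per the authors' deposited table, and 18 of the remaining 20 peaks also lay below 0. Zfp2 had 2 peaks, touching and intronic, and both were depleted, at -4.00 (adjusted p = 1.2e-05) and -3.08 (adjusted p = 0.012) per the authors' deposited table. Zfp64, whose product is known as a coactivator of Notch targets, had 8 intronic peaks, all below 0. Of these, -3.65 (adjusted p = 3.5e-04) and -2.76 (adjusted p = 0.028) were called per the authors' deposited table.

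Depleted intronic peaks also occurred in Zfp507 (-2.95), Zfp148 (-2.97), Zfp710 (-3.66 and -3.46), Zfp938 (-3.64), Zfp697 (-3.18), Zfp384 (-2.99), Zfp410 (-2.78) and Zfp608 (-3.24), and in a peak of -3.41 that carries the names Zfp934 and Zfp935 and lies outside the RefSeq span of Zfp935, per the authors' deposited table. Zfp148 encodes a Krüppel-type factor that binds GC-rich promoters, Zfp384 a nuclear matrix-associated factor, and Zfp410 an activator of the chromatin remodeller gene Chd4. Their adjusted p-values per the authors' deposited table ran from 8.7e-04 in Zfp507 to 0.032 in Zfp608. The 10 depleted coding peaks lay in 8 genes. Zfp110, which encodes a factor that interacts with the p75 neurotrophin receptor, and Zfp691 each had 2 that touched. In Zfp110 they stood at -3.68 and -3.49, and in Zfp691 at -3.59 and -3.05 (lowest adjusted p = 0.0022 and 0.0019 per the authors' deposited table). The others lay in Zfp276 (-3.57), Zfp414 (-3.35), Zfp532 (-3.26), Zfp563 (-3.07), Zfp639 (-3.02) and Zfp568 (-2.94) per the authors' deposited table. Zfp568 encodes a KRAB protein that silences a placental promoter of Igf2, and Zfp532 a partner of ZMYND8. Zfp414 and Zfp639 had 1 peak each, so their whole record in the table is depleted.

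Zfp423 (ENSMUSG00000045333.15) had the most peaks and the most calls of the set. It encodes a transcription factor with many fingers that works with EBF and SMAD proteins and is known from cerebellar and adipocyte development. The gene had 37 peaks, 34 of them intronic, on the minus strand of chromosome 8, and 6 of the 37 were depleted per the authors' deposited table. Values changed along the transcript. The 9 intronic peaks between 3.11 and 73.6 kb from the RefSeq 5′ end all lay below 0, from -2.84 to -0.94, and 5 of them were depleted per the authors' deposited table. The strongest call, at 87914698 to 87914740, had -2.84 (adjusted p = 1.1e-06 per the authors' deposited table). Of the 25 intronic peaks from 122 to 267 kb, 21 lay above 0, with a median of 0.47 and a highest value of 2.36 (adjusted p = 0.098 per the authors' deposited table), and none was called. The last 3 peaks, coding and 3′ UTR, all lay below 0, with -1.75, -1.21 and -2.69, the last of these depleted (adjusted p = 0.034 per the authors' deposited table). The division of the intronic peaks at 100 kb was made after their values were seen and carries no test. Most of these intronic peaks touch a neighbour, so they mark fewer separate stretches than peaks.

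Of the 6 calls of Zfp423, 4 came at smaller fold changes than any call of another member. Its depleted intronic peaks had -1.79, -2.05, -2.26, -2.36 and -2.84 per the authors' deposited table, and the first 4 were the smallest in size of all 37. The intronic call of -2.84 and the 3′ UTR call of -2.69 were larger in size than the -2.64 called in Zfp407. The median over the 37 depleted member peaks was -3.24. Once the table was centred on its median, 4 of the 6 depleted Zfp423 peaks still passed.

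**Figure D2:**
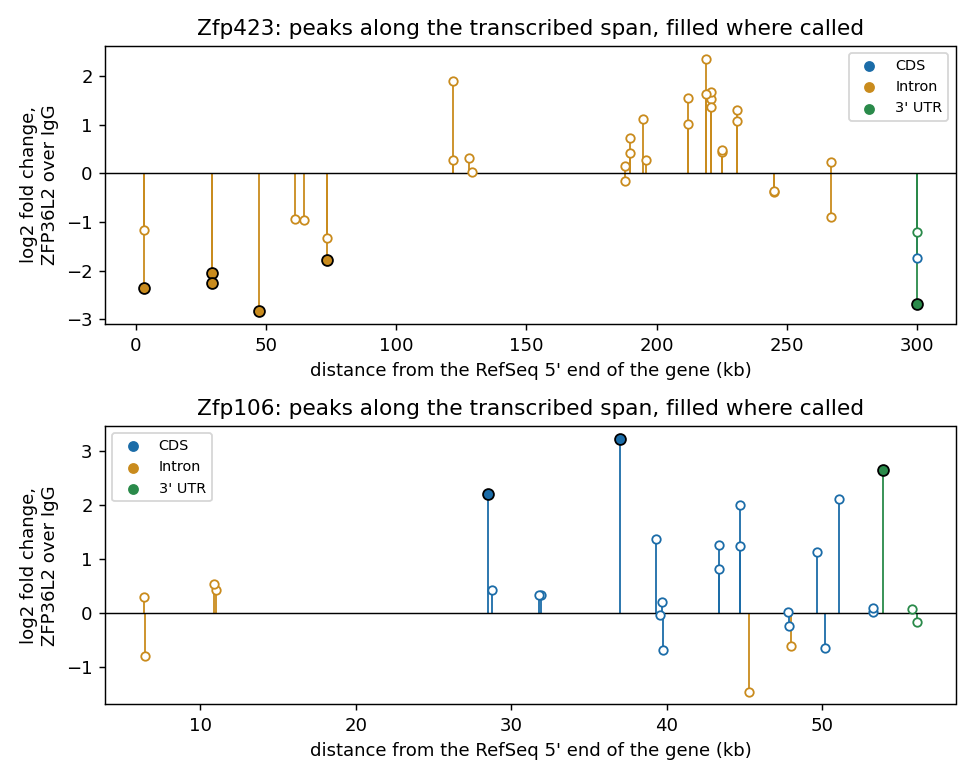
Log2 fold change of ZFP36L2 over IgG (y axis) against the distance of each peak from the RefSeq 5′ end of the gene (x axis, kb) for Zfp423 (37 peaks, upper panel) and Zfp106 (29 peaks, lower panel). Each stem is 1 peak, coloured by transcript region and filled where called. In Zfp423 the 9 intronic peaks of the first 73.6 kb lie below 0 and 21 of the 25 further intronic peaks lie above it. Most of these intronic peaks touch a neighbour. In Zfp106 the 3 called peaks lie above 0.

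Other members with many peaks had no call. Zfp711, whose human counterpart is an X-linked gene known to bind the histone demethylase PHF8, had 16 peaks, 13 of them coding, with a median of -0.04 and values from -2.08 to 1.27 per the authors' deposited table. Its peaks divided evenly, with 8 below 0 and 8 above. Zfp609, a partner of the cohesin loader NIPBL, had 15 peaks with a median of -1.42, and the lowest adjusted p was 0.22 per the authors' deposited table. All 12 peaks of Zfp236 lay below 0, from -2.17 to -0.57 per the authors' deposited table, and its lowest adjusted p was 0.83. Zfp598, the ubiquitin ligase that marks collided ribosomes, had 10 peaks between -2.14 and 1.05 per the authors' deposited table. Zfp207, a protein of the mitotic spindle, had 9 peaks, all coding, from -0.85 to 1.16 per the authors' deposited table. Zfp521, known as an antagonist of EBF1, had 8 peaks, all below -1 and none called, the lowest at -2.98 (adjusted p = 0.12 per the authors' deposited table).

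**Figure D3:**
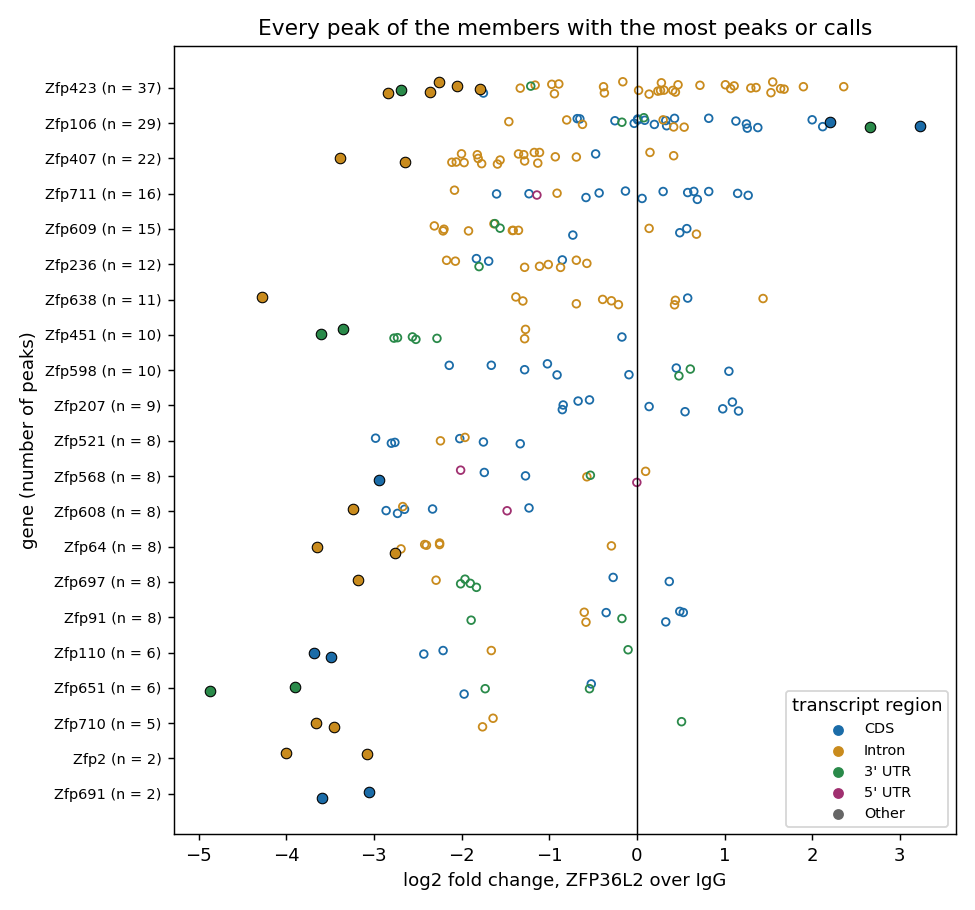
Log2 fold change of ZFP36L2 over IgG (x axis) of every peak of the members with at least 8 peaks, more than 1 depleted peak or an enriched peak, by gene (y axis, with the number of peaks). Points are peaks, coloured by transcript region and filled where called, with vertical jitter only. Zfp106 is the gene with filled points above 0. Among the genes with 8 or more peaks, Zfp451, Zfp64, Zfp236, Zfp521 and Zfp608 have every peak below 0.

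The members' peaks fell on transcript regions in nearly the same shares as other peaks. Introns held 281 (42.4%, against 42.3% of other peaks), coding sequence 251 (37.9%, against 37.0%), 3′ UTRs 91 (13.7%, against 13.6%), 5′ UTRs 22 (3.32%, against 2.20%) and the class other 17 (2.57%, against 4.80%). By gene, 84 members had exonic peaks and no intronic one, 52 had intronic peaks and no exonic one, and 45 had both. The depleted share was 7.83% of intronic, 5.49% of 3′ UTR and 3.98% of coding member peaks, against 7.03%, 4.82% and 3.74% of other peaks in these regions. The median peak length was 35 nucleotides in both sets.

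Within regions, the 3′ UTR showed the widest gap between members and other peaks among introns, coding sequence and 3′ UTRs. The 91 member peaks in 3′ UTRs, spread over 49 genes, had a median log2 fold change of -1.64, against -1.07 for other 3′ UTR peaks of the authors' deposited table. In coding sequence the medians were -0.91 for members and -0.71 for other peaks, and in introns -1.35 and -1.31, per the authors' deposited table. Of the 91 peaks, 78 lay below 0 (85.7%, against 78.4% of other 3′ UTR peaks). The single 3′ UTR peak above 2 was that of Zfp106, followed by Zfp275 with 1.20 (adjusted p = 1.0 per the authors' deposited table). At the low end stood Zfp651 and Zfp451, described above, then uncalled peaks of Zfp964 at -2.92 (adjusted p = 0.13) and Zfp398 at -2.88 (adjusted p = 0.069 per the authors' deposited table). These are descriptions of the members, with no test of the gap. Region was not used to choose the members.

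**Figure D4:**
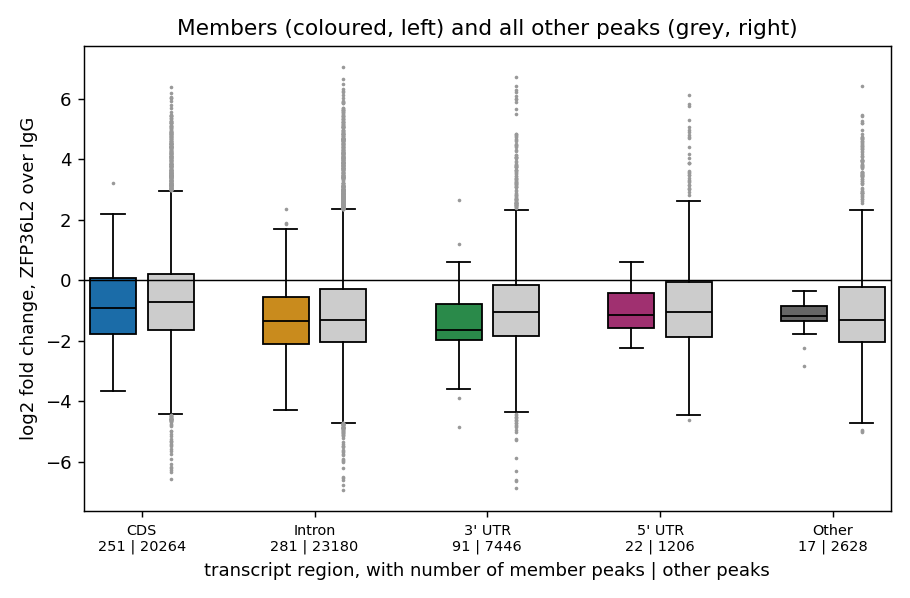
Log2 fold change of ZFP36L2 over IgG (y axis) by transcript region (x axis) for member peaks, in colour on the left, and all other peaks, in grey on the right, with the number of peaks below each pair. Boxes span the quartiles with the median as a line, and whiskers reach the last value within 1.5 times the box height. The 3′ UTR boxes differ most among the 3 largest regions, with medians of -1.64 and -1.07.

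None of the 22 peaks in 5′ UTRs and none of the 17 in the class other was called in either direction. Among other peaks, 5.89% were depleted and 3.23% enriched in 5′ UTRs, and 6.13% and 3.39% in the class other. The lowest value in a 5′ UTR was -2.23 (adjusted p = 0.16 per the authors' deposited table), in Zfp131, which encodes a BTB domain zinc finger protein. That peak, at 119790696 to 119790748 on chromosome 13, touches a short second one of -1.06 per the authors' deposited table. In Zfp637 the touching 5′ UTR peaks had -1.24 and -1.13 per the authors' deposited table. The 2 short peaks are printed here because they are the only ones of up to 30 nucleotides whose bases lie within the RefSeq promoter windows (GRCm38.p6) used here, at chr13:119790685-119790695 on the minus strand and chr6:117841269-117841280 on the plus strand, 5′ to 3′.
Zfp131: gttgtgggccg
Zfp637: gtgagtgttgct
Neither was called, with an adjusted p of 1.0 each per the authors' deposited table. The windows used here do not hold every short member peak near a RefSeq 5′ end. An example is a 5′ UTR peak of Zfp281 at 0.077 kb, whose bases were not read.

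Members were also grouped by textbook roles, and differences between these lists and the whole set were not tested. A list of 5 RNA-associated genes had 55 peaks with a median log2 fold change of 0.20 per the authors' deposited table, of which 21 lay below 0 (38.2%). That list does not hold every member known to act on RNA, so its values describe the listed genes only. Without Zfp106, the 26 peaks of Zfp207, Zfp318, Zfp326 and Zfp638 had a median of -0.09, and 13 lay below 0 per the authors' deposited table. Of the 55 peaks, the 3 of Zfp106 were enriched (5.45%, against 2.22% of all peaks) and the 1 of Zfp638 described above was depleted (1.82%, or 3.85% without Zfp106, against 5.44% of all peaks). Zfp318 had an intronic peak of 1.86 (adjusted p = 0.79), and the single peak of Zfp326, a subunit of the DBIRD complex of RNA polymerase II elongation and splicing, stood at -1.34 (adjusted p = 1.0 per the authors' deposited table). The list of 15 measured partners of corepressors and other nuclear complexes had 115 peaks with a median of -1.11 per the authors' deposited table, 9 of them depleted (7.83%, against 5.44% of all peaks) and none enriched (against 2.22%). Its depleted genes were Zfp148, Zfp423, Zfp532 and Zfp608, the last a repressor of Rag genes in thymocytes. Without Zfp423 that list had 78 peaks, 3 of them depleted (3.85%), and a median of -1.42 per the authors' deposited table.

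Measured members of the corepressor list other than the 4 depleted genes had no called peak. Zfp281, a factor of pluripotent cells, had 3 peaks, all below 0, and Zfp217, a partner of the CtBP corepressor, 6 peaks from -1.58 to 0.00 per the authors' deposited table. Zfp462 had 2 of 3 peaks above 0, up to 0.90 per the authors' deposited table. Zfp703 had 7 peaks with a median of -1.44 per the authors' deposited table, and Zfp644, which works with the methyltransferases G9a and GLP, had 6 with a median of -0.46. All 5 peaks of Zfp536 lay below 0, from -2.47 to -1.92, as did the 5 of Zfp592, from -1.77 to -0.50, and the single peak of Zfp687, at -0.99, per the authors' deposited table. Zfp592 and Zfp687 encode partners of ZMYND8, like Zfp532. Zfp516, a cold-induced activator of Ucp1 in brown fat, had -0.86 and 0.16 by the authors' deposited table. Of the 5 KRAB genes known for imprint or retroelement control, Zfp57, Zfp445 and Zfp809 had 10 peaks together. Of these, 9 lay below 0 (90.0%, against 76.1% of other peaks). None was called, where 2.22% of all peaks were enriched and 5.44% depleted. Zfp57, which protects imprints in the early embryo, had its 3 peaks between -1.77 and -1.42 per the authors' deposited table. Among activators and other factors, 7 of 9 genes had 54 peaks, and 5 of these were depleted (9.26%, against 5.44% of all peaks), in Zfp64, Zfp407 and Zfp410. Zfp407 alone held 22 of the 54 peaks, and its 2 depleted peaks touch, so the share rests on few stretches. Zfp292 had 2 peaks, at -2.35 and -2.32, and Zfp335, whose product joins histone methyltransferase complexes, had 5 from -1.27 to 0.30, per the authors' deposited table. Zfp91, a ubiquitin ligase of the NF-kB pathway, had 8 peaks from -1.89 to 0.53 per the authors' deposited table, none called.

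The proteins through which KRAB zinc finger proteins silence chromatin gave few calls. That list holds 24 names, among them Fam208a and Kap1, which are other names of Tasor and Trim28. Of the names, 19 had a peak, with 126 peaks in all. One was enriched (0.794%, against 2.22% of all peaks), a coding peak of the chromatin remodeller gene Atrx with 4.85 (adjusted p = 5.1e-37 per the authors' deposited table), and none was depleted, against 5.44% of all peaks. Trim28, the central corepressor, had peaks of -1.42 and -2.34 (lowest adjusted p = 0.13), and Setdb1 had 1 peak of -0.91 (adjusted p = 1.0 per the authors' deposited table). The median over the 126 peaks was -0.57. On a list of 34 zinc finger genes without a number after Zfp, 28 had a peak. They held 266 peaks with a median of -1.12 per the authors' deposited table. Of the 266, 4 were enriched, against 2.22% of all peaks, and 15 depleted (5.64%), close to the 5.44% of all peaks. The enriched ones lay in Egr1, Prdm2, Yy1 and Zbtb20.

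Members were also compared by their place in the genome. RefSeq (GRCm38.p6, the build of the files) lists 371 genes of this name pattern, of which 184 had a peak and 187 had none. A member name, Zfp125, was not among the RefSeq symbols. Chromosome 7 held the most, with 40 of 90 genes having a peak, followed by chromosome 17 with 24 of 41. On chromosome 18, 10 of 11 had a peak, and on chromosome 4, 9 of 28. A gene without a peak is not shown to lack expression or binding, since the depth is unknown. Of 213 genes within 100 kb of another gene of the set, 93 (43.7%) had a peak, against 91 of 158 (57.6%) of the isolated ones.

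The clustered genes had 215 peaks, or 2.31 per gene with a peak, while the isolated ones had 444, or 4.88 per gene. None of the clustered peaks was enriched and 7 were depleted (3.26%), against 3 enriched and 30 depleted (6.76%) among isolated ones. Over all peaks, 2.22% were enriched and 5.44% depleted. The 3 enriched peaks all lay in Zfp106, and 6 of the 30 depleted ones in Zfp423. Median log2 fold changes per the authors' deposited table were -1.60 for clustered and -1.13 for isolated genes, and the shares below 0 were 86.0% and 75.7%. The depleted clustered genes were 6, namely Zfp2, Zfp110, Zfp563, Zfp568, Zfp934 and Zfp935, of which the last 2 share a peak. The sources used here do not say how the authors assigned reads that match several similar genes, and its part in these values was not tested. Values of clustered members are uncertain to that extent.

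**Figure D5:**
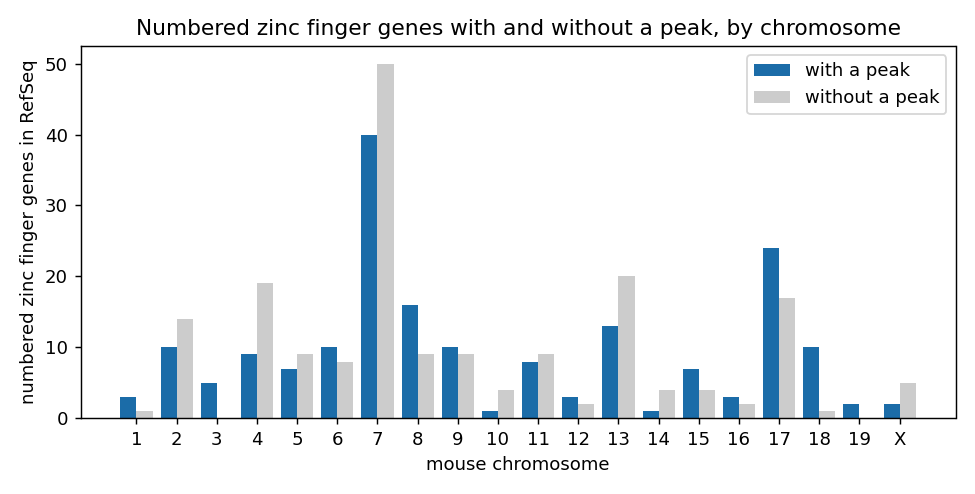
Number of numbered zinc finger genes in RefSeq (y axis) with a peak, in blue on the left, and without one, in grey on the right, by mouse chromosome (x axis). Chromosome 7 holds 40 with and 50 without, chromosome 4 holds 9 with and 19 without, and chromosome 18 holds 10 with and 1 without.

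Neighbouring peaks were often parts of 1 stretch. Of the 662 member peaks, 394 (59.5%) touched another peak, against 53.1% of other peaks, and 211 (31.9%) were shorter than 20 nucleotides. The 199 touching pairs of members differed by a median of 0.28 in log2 fold change per the authors' deposited table, and 180 of them had the same sign. Of the 37 depleted peaks, 16 formed 8 such pairs, so the 37 calls mark 29 separate stretches. The widest difference within a pair was 2.33, in Zfp507 (-2.24 and 0.09 per the authors' deposited table). At the threshold, the last depleted peak was a coding one of Zfp639 (adjusted p = 0.037), and the first outside were intronic peaks of Zfp704 (-3.16, adjusted p = 0.051), Zfp423 (-1.33, adjusted p = 0.052) and Zfp169 (-2.53, adjusted p = 0.063 per the authors' deposited table). On the enriched side the last was the 3′ UTR peak of Zfp106 and the first outside the intronic Zfp423 peak of 2.36, both given above.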

How the data were processed

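Per the submitters' processing notes, the tools were DESeq2 1.34.0, STAR 2.7.7a, cutadapt 3.2 and UMI-tools 1.1.1, with build mm10. The sources used here do not give their roles, the peak calling, the use of inputs or the normalization. The deposited table has 1 row per peak, with the log2 fold change (ZFP36L2 over IgG) and both p-values as −log10 values, converted back here. No column holds counts, so the planned count test over samples was not applicable and read depth is unknown.

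Gene names, Ensembl IDs and regions are those of the table. Peaks with several names counted for each name and once in counts of peaks. Counting was tested on simulated data. Python 3.11.15 with pandas 2.3.3 and numpy 2.4.6 was used. Neighbourhoods and 5′ ends come from the RefSeq table. The planned classes by KRAB box, finger arrays and AU-rich words were not made. No protein sequence was used here, and bases were read only within the RefSeq promoter windows.

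Named genes were, by rule, those with enriched peaks, the 15 depleted genes with the smallest adjusted p, those with the most peaks or calls, the 5 extreme peaks on each side and fixed role lists. All other depleted genes, Zfp275, Zfp398, Zfp964 and Zfp637 were named after their values were seen. Members and lists were chosen with earlier results of these data known.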

Additional observations from a re-analysis of the deposited data

How the results depend on the processing

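The 8 counts, medians and region shares were recomputed under 12 other settings, 9 planned and 3 chosen after seeing the data (without Zfp106, without clustered members, peaks of at least 20 nucleotides). Of the 96 values, 89 stayed within 1.5 times the main count or median or, for shares, within the 95% binomial interval. Part of these could not change, since the cutoffs on p and fold change do not enter the median or the region shares. A turn of direction was defined only for the median, as a change of sign, and did not occur. At an adjusted p under 0.01, depleted member peaks numbered 23 (3.36% of all peaks were called there) in 16 genes, and enriched ones 2. With 1 peak per gene, which by construction drops the rest, 1 peak was enriched and 24 were depleted. Of all peaks kept under that setting, 4.88% were enriched and 16.5% depleted. Centring on the table median gave a median of -0.22 for members. The members' median lay below that of the whole table except with 1 peak per gene, where it lay above (-1.88, against -1.95). Without Zfp106, 0 member peaks in 0 genes were enriched by the authors' adjusted p, and at an unadjusted p under 0.05 the remaining peak above 0 was in Zfp423. No paired analysis was possible because the table gives no library columns, and leaving out a library could not be done for the same reason. The alternatives for KRAB classes, AU-rich words and zinc finger exons were not run. Unknown depth limits every count, since a peak may miss the threshold for lack of reads.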
